A study of Mus musculus with 2 samples.

Results

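A set of 10 genes of the NRF2-type antioxidant response was followed in single cells of the mouse lung: Gclc, Gclm, Nqo1, Srxn1, Txnrd1, Gpx2, Cbr3, Gsta3, Gsta4 and Hmox1. They were chosen by symbol, and all 10 were found in both libraries. One library was made at E18.5, an embryonic stage shortly before birth, and 1 at P10, a postnatal stage. Both carried Cdh16CreERT2, a tamoxifen-dependent recombinase driven by the gene of a kidney-type cadherin, and a tdTomato reporter, given as flox/flox in the labels and as flox/wt in the design text. Tamoxifen had been given to the mothers from embryonic day 12.5, by injection (0.1 mg/kg) or in the diet (0.4 g per kg of food), and the route of each library was not given in the sources used here. tdTomato-positive cells were sorted within the CD326 (Epcam) stained population, so by design the sort was for epithelial cells with a Cdh16 history; the cells recovered also included other types, counted below. Every mouse carried the reporter, and no unlabelled control library was analysed here. The labels call both tissues embryonic lung, which goes against the P10 time point. The number of animals pooled was not given in the sources used here. There was 1 library per time point, so differences carry no replicate check, and the 95% intervals below cover counting error only.

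NRF2 (gene Nfe2l2) is a transcription factor that KEAP1 marks for destruction in resting cells. When reactive compounds modify KEAP1, NRF2 accumulates and binds antioxidant response elements near genes for glutathione synthesis, reduction and detoxification. In the lung, club cells of the small airways are known for xenobiotic metabolism, and alveolar type 2 (AT2) cells make surfactant and can give rise to alveolar type 1 (AT1) cells, passing through a transitional state.

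Gclc (chr9:77754535-77794485) and Gclm (chr3:122245557-122270732) encode the 2 subunits of glutamate-cysteine ligase, the first enzyme of glutathione synthesis. Srxn1 (chr2:152105516-152111376) and Txnrd1 (chr10:82833951-82897712) serve the thioredoxin system. Gpx2 (chr12:76792333-76795554) encodes a glutathione peroxidase, and Gsta3 (chr1:21240589-21265661) and Gsta4 (chr9:78182774-78209349) encode glutathione transferases. Nqo1 (chr8:107388225-107403206) and Cbr3 (chr16:93683215-93690990) reduce quinones and carbonyls, and Hmox1 (chr8:75093621-75100589) breaks down haem. All are protein-coding genes, placed here on GRCm38.

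The antioxidant response element has the core TGACNNNGC, read on either strand. RefSeq promoter windows on GRCm38.p6, from 250 bases before to 50 after a gene's start, were matched for 7 of the 10 genes, and not for Gclc, Gsta4 and Hmox1. The core was found in 4 of the 7, against 12.4% of all 32851 windows and 14% of the 27025 genes with a window. The 4 stretches are shown because these genes are followed together below. Capitals mark the core, which lies on the gene's own strand in Gsta3 and on the opposite strand in the others.
Gclm, plus strand, chr3:122245397-122245457: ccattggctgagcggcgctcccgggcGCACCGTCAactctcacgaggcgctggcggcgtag
Srxn1, plus strand, chr2:152105542-152105570: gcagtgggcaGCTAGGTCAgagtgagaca
Txnrd1, plus strand, chr10:82859088-82859148: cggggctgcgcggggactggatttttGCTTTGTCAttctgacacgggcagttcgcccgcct
Gsta3, plus strand, chr1:21240438-21240498: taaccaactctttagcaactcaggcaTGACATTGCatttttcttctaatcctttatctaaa
The leftmost capital as printed lies 134 bases before the start in Gclm, 92 before it in 1 of 3 Txnrd1 windows, 121 before it in Gsta3 and 29 after it in Srxn1. These are letter matches in a window and no measurement of binding.

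After filtering, 12027 E18.5 cells (median 8959 UMIs) and 14086 P10 cells (median 10250.5 UMIs) remained. The libraries shared 52 cell barcodes among these cells, and 59 before filtering. Cells were clustered with the 10 genes and the other genes of the pathway left out, and clusters were named from marker lists. E18.5 held 3751 AT1-like, 2424 AT2-like, 2038 mixed AT1- and AT2-like, 224 club-like and 450 ciliated-like cells. P10 held 9071 AT2-like, 1800 transitional-like, 171 mixed, 56 club-like and 41 ciliated-like cells, and no cluster was named AT1-like alone. Non-epithelial cells made up 24.1% and 19.3% of the libraries, although the sort was for CD326. Sftpc, the surfactant protein C gene, stood in non-epithelial cells without raised alveolar markers at 15.6% of its AT2-like level at E18.5 and at 40.8% at P10. By cluster of non-epithelial cells it ran from 7382 to 67902 CPM at E18.5 and from 21500 to 114563 CPM at P10, against 140265 and 149495 CPM in AT2-like cells. How much of it is free RNA and how much doublets was not tested. The doublet caller marked 2 and 1 cells and was read as not having worked, so doublets were left in.

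In AT2-like cells 2 genes differed between the libraries by at least 2-fold, in opposite directions, among the 8 with at least 10 CPM. Nqo1, under 10 CPM in both libraries, also passed 2-fold and is given below. Cbr3, a carbonyl reductase, was counted in E18.5 cells at 37.2 CPM, UMIs of the gene per 1000000 UMIs of the class (interval 34.9 to 39.7). In P10 cells it was at 5.52 CPM (5.08 to 5.98), so it was 6.75-fold higher at E18.5 (6.08 to 7.49). Non-epithelial cells without raised alveolar markers held 15.8 CPM of Cbr3 at E18.5, below the AT2-like level, and 10.6 CPM at P10, above it. Txnrd1, cytosolic thioredoxin reductase, was lower in E18.5 cells, at 89.7 CPM (86.1 to 93.5), than in P10 cells, at 187 CPM (184 to 189), a ratio of 2.08 (1.99 to 2.17). Of the 8 genes with at least 10 CPM in either library, 1 was thus higher and 1 lower at P10, beside 15.2% and 9.56% of all 8362 genes measured the same way. The median log2 ratio of the 8 was -0.49, against 0.22 over all genes, and -0.70 once that shift was subtracted. The Txnrd1 ratio lay at the 2-fold line and stayed past it in 3 of 10 other settings, with log2 values from 0.60 to 1.09, while Cbr3 passed 2-fold lower in all 10 (-3.71 to -1.94).

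The genes of glutathione synthesis were lower at P10 without reaching 2-fold. Gclc, the catalytic subunit of glutamate-cysteine ligase, was at 862 CPM before birth and 490 CPM after it, and the ratio was 0.569 (0.560 to 0.578). Its partner Gclm, the modifier subunit, was at 53.6 and 28.7 CPM, a ratio of 0.536 (0.503 to 0.571). Both log2 ratios were negative in all 10 other settings, and each passed 2-fold in 4 of them. Srxn1, sulfiredoxin, which repairs over-oxidised peroxiredoxins, was at 14.9 and 9.06 CPM, a log2 ratio of -0.71, which was -0.10 once mixed and transitional-like cells were added.

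The glutathione transferases differed. Gsta3 stood at 12.3 CPM in the E18.5 and 22.4 CPM in the P10 library, a ratio of 1.81 (1.61 to 2.05). The log2 ratio of Gsta3 ran from 0.18 with clusters built on all variable genes to 1.37, past 2-fold, under the stricter cell filter. Gsta4, which conjugates products of lipid peroxidation, was at 70.5 and 59.0 CPM, a ratio of 0.836 (0.794 to 0.881), and its sign turned under the stricter cell filter. Hmox1, haem oxygenase 1, was at 46.2 and 40.3 CPM, a ratio of 0.872 (0.818 to 0.931), and its sign turned against genes of like length. Nqo1, a quinone reductase, and Gpx2, a glutathione peroxidase, stayed under 10 CPM in both AT2-like sums. Nqo1 was at 5.51 and 2.08 CPM, 2.65-fold higher at E18.5 (2.13 to 3.28), on 143 and 223 UMIs. It stayed past 2-fold lower at P10 in all 10 other settings. Gpx2 was at 5.39 and 4.48 CPM. The log2 ratio of Gpx2 turned from -0.27 to 0.85 under the stricter filter and to 0.15 against genes of like length. Gene length moved with the ratio over all genes: over 5 equal groups of genes by length, the median log2 ratio was -0.41 in the shortest (up to 8.86 kb) and 0.81 in the longest (from 84.7 kb). Txnrd1 spans 63.8 kb, Gclc 39.95 kb, Cbr3 7.78 kb and Srxn1 5.86 kb, and the part of length in these differences was not tested.

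**Figure D1:**
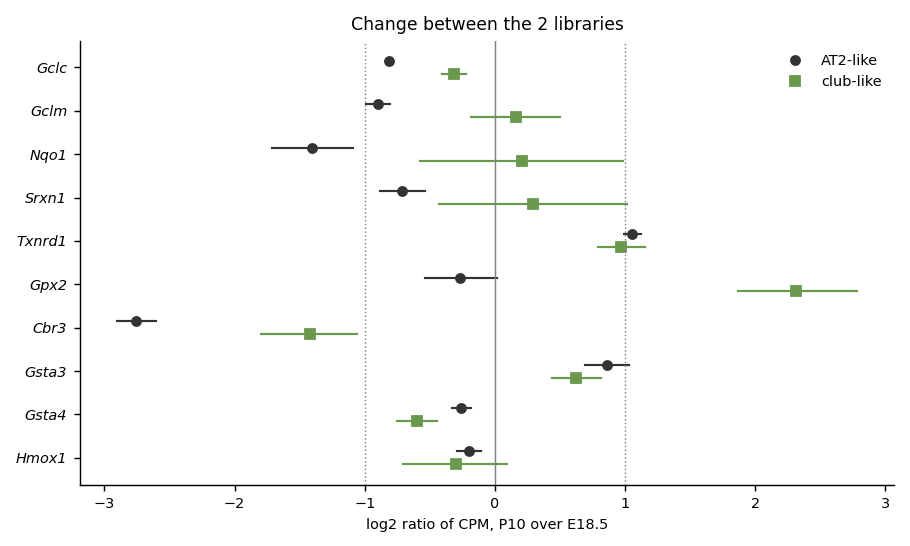
Log2 ratio of CPM at P10 over E18.5 (x axis) for each of the 10 genes (y axis) in AT2-like cells (circles) and club-like cells (squares); bars are 95% counting intervals, the solid line marks no difference and dotted lines 2-fold. Cbr3 lies left of the line in both classes (-2.75 and -1.42), Txnrd1 near 2-fold higher in both (1.06 and 0.97), and Gpx2 at 2.32 in club-like and -0.27 in AT2-like cells.

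In club-like cells Gpx2 and Cbr3 differed by at least 2-fold between the libraries. Gpx2 was at 18.2 CPM before birth (13.6 to 23.8, 53 UMIs) and 90.6 CPM after it (77.9 to 105, 181 UMIs), a ratio of 4.98 (3.65 to 6.89). Cbr3 was at 106 and 39.5 CPM, a ratio of 0.374 (0.288 to 0.480). Txnrd1, at 155 and 304 CPM, reached a log2 ratio of 0.97. Thus 1 of 10 genes was higher and 1 lower at P10, beside 13.9% and 13.1% of 8423 genes in these cells. The other 7 stayed within a log2 ratio of -0.60 (Gsta4) to 0.62 (Gsta3). The P10 value rests on 56 cells, whose median of 34754 UMIs was above the library's. An unnamed P10 cluster of 35 cells, left out of the club-like class, held Gpx2 at 82.8 CPM and Cbr3 at 52.9 CPM.

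Cbr3 and Txnrd1 were followed in other classes as well. Cbr3 was lower at P10 in myeloid-like cells (22.2 and 10.6 CPM, ratio 0.475, 0.387 to 0.580) and close in both libraries in fibroblast-like cells (15.97 and 16.3 CPM, ratio 1.02, 0.701 to 1.49). Among myeloid-like cells, 1440 of 1493 E18.5 cells lay in clusters with raised alveolar markers, against 119 of 633 P10 cells. A marker was called raised relative to other clusters, so these counts do not compare alveolar RNA between the libraries. Sftpc was lower in E18.5 myeloid-like cells (32670.5 CPM) than in those of P10 (78864 CPM). Ager, which at E18.5 was highest in AT1-like cells, went the other way (2897 CPM before birth, 386 CPM after it). Cbr3 ran from 13.8 to 30.4 CPM over the E18.5 and from 4.22 to 14.2 CPM over the P10 myeloid-like clusters, and the part of alveolar RNA was not tested. Txnrd1 was higher in myeloid-like cells (140 and 294 CPM, ratio 2.11, 2.01 to 2.21) and in fibroblast-like cells (70.1 and 203 CPM, ratio 2.89, 2.51 to 3.35). Gsta3 was higher at P10 in both too, at 6.03 and 19.0 CPM in myeloid-like and 2.98 and 23.5 CPM in fibroblast-like cells. In myeloid-like cells 2 of 8 measured genes were higher and 1 lower, beside 15.3% and 10.1% of all genes. In fibroblast-like cells the same counts stood beside 15.6% and 9.43%.

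Club-like cells stood above AT2-like cells of the same library for several of the genes at both ages. At E18.5 the club-like cluster was led by Scgb3a2 and Scgb1a1, secretoglobins of the airway, with 7 raised club markers, and at P10 both club-like clusters had 8. At E18.5, 5 of 10 genes were at least 2-fold higher, beside 5.46% of 8035 genes, and the median log2 ratio was 0.94, against -0.02 over all. At P10, 6 of 10 were higher, beside 5.90% of 8392 genes, and the medians were 1.63 and -0.27. None was 2-fold lower at either age, beside 6.57% and 5.37% of all genes. Sftpc in club-like cells was at 16.1% of its AT2-like level at E18.5 and 40.6% at P10, close to its share in non-epithelial cells given above.

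Both transferases were well above AT2-like cells at both ages. Gsta3 was at 156 CPM in club-like and 12.3 CPM in AT2-like cells at E18.5, a ratio of 12.7 (10.9 to 14.7), and at 240 and 22.4 CPM at P10, a ratio of 10.7 (9.72 to 11.9). Gsta4 was at 383 and 70.5 CPM at E18.5, a ratio of 5.44 (5.04 to 5.86), and at 253 and 59.0 CPM at P10, a ratio of 4.30 (3.92 to 4.70). With each cell thinned to 3000 UMIs, Gsta4 had a UMI in 66.0% of 209 E18.5 club-like cells (exact binomial interval 59.2 to 72.4). The share was 15.9% in AT2-like cells and 6.55% in non-epithelial cells without raised alveolar markers.

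Gpx2, Cbr3 and Nqo1 were also higher in club-like cells, with ratios that differed between the ages. For Gpx2 the ratio was 3.38 at E18.5 (2.41 to 4.66) and 20.2 at P10 (16.9 to 24.0). For Cbr3 it was 2.84 (2.49 to 3.23) and 7.17 (5.59 to 9.07). Nqo1 was at 11.7 and 5.51 CPM at E18.5, a ratio of 2.12 on 34 club-like UMIs, and at 13.5 and 2.08 CPM at P10, a ratio of 6.50 on 27 UMIs (4.19 to 9.72). With clusters built on all variable genes, the E18.5 log2 ratios of Gpx2, Cbr3 and Nqo1 were 0.66, 0.55 and 0.45, under 2-fold. The AT2-like cells compared also differed between the ages. At P10 transitional-like cells, with more Gpx2 and Cbr3, were named apart from them, and no E18.5 cluster was named transitional-like. The part of this in the ratios was not tested. Gclc, Txnrd1, Srxn1 and Hmox1 were under 2-fold at both ages. Srxn1 passed it in other settings, with a log2 ratio of -1.01 at E18.5 with all variable genes, and of 1.06 and 1.04 at P10 under the stricter filter and at resolution 0.5. Hmox1 was at 51.2 and 46.2 CPM at E18.5 and at 41.5 and 40.3 CPM at P10, with intervals of the ratio that include 1. Gclm was close to its AT2-like level at E18.5 (57.4 and 53.6 CPM) and 2.23-fold higher at P10 (1.86 to 2.66).

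**Figure D2:**
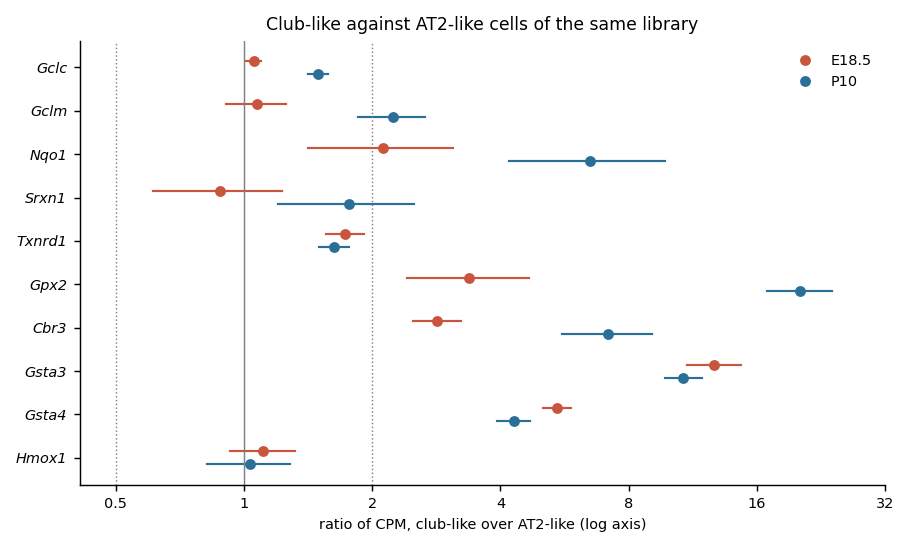
Ratio of CPM in club-like over AT2-like cells of the same library (x axis, log scale) for each of the 10 genes (y axis), at E18.5 and P10; bars are 95% counting intervals, dotted lines mark 2-fold. Gsta3 and Gsta4 lie right of the 2-fold line at both ages, Hmox1 lies at 1 at both (1.11 and 1.03), and Gpx2 moves from 3.38 to 20.2.

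The transitional-like cells of P10 formed 1 cluster with 7 raised markers of the transitional state, led by Sprr1a, Areg and Sfn. Srxn1 was among its 10 leading genes although it had been left out of the clustering. Srxn1 was at 40.1 CPM there (37.7 to 42.5) and 9.06 CPM in AT2-like cells, a ratio of 4.42 (4.05 to 4.83). Gpx2 (10.2 and 4.48 CPM, ratio 2.28, 1.955 to 2.65) and Cbr3 (12.4 and 5.52 CPM, ratio 2.24, 1.95 to 2.57) were also past 2-fold. That made 3 of 9 measured genes, beside 1.1% of 8012 genes higher and 0.137% lower, and the median log2 ratio was 0.82, against 0.003 over all. Txnrd1 (340 and 187 CPM, ratio 1.82), Gclc (863 and 490 CPM, ratio 1.76) and Gclm (46.7 and 28.7 CPM, ratio 1.63) were higher by less. Gsta3, Gsta4 and Hmox1 differed by at most 1.27-fold. Areg, an epidermal growth factor receptor ligand, and Sfn, a 14-3-3 protein, are on the marker list that named this cluster. They were at 574 and 359 CPM in it and at 166 and 102 CPM in AT2-like cells. Genes of dissociation and immediate early stress were also higher in this cluster: cells with 0 or 1 of the 10 genes detected held a mean of 49.6 UMIs of that list per 3000 in transitional-like and 31.5 in AT2-like cells. Within transitional-like cells the stress UMIs were lower, at 36.6, in cells with 5 or more of the 10 genes. The part of stress in these ratios was not tested.

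The mixed cells of E18.5 were close to AT2-like cells, and none of 8 measured genes was 2-fold different, beside 4.2% of 7925 genes higher and 0.278% lower. Their 2 clusters differed. In the cluster of 1256 cells led by Sprr1a, Cbr3 and Sfn, Cbr3 was at 70.4 CPM, Gpx2 at 13.4 CPM and Gsta4 at 112 CPM. In the other, of 782 cells, the same genes were at 25.9, 5.15 and 60.5 CPM. Mixed cells had a median of 16988 UMIs, against 9462.5 in AT2-like cells. Among cells with 0 or 1 of the 10 genes detected, the median doublet score was 0.0903 in mixed and 0.0344 in AT2-like cells, and the part of doublets was not tested.

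AT1-like cells of E18.5 had lower levels of all 10 genes than AT2-like, mixed, club-like, ciliated-like and neuroendocrine-like cells of that library. Of 8 measured genes, 4 were at least 2-fold lower than in AT2-like cells and none higher, beside 8.75% and 15.1% of 8393 genes, and the median log2 ratio was -1.41, against 0.34 over all. Srxn1 was at 2.30 CPM, 6.47-fold lower (4.83 to 8.82). Gclc was at 172 CPM, 5.01-fold lower (4.84 to 5.18), and Cbr3 at 7.69 CPM, 4.84-fold lower (4.12 to 5.72). Gsta3, at 3.14 CPM, was 3.93-fold lower. Gsta4 (64.4 CPM) and Gclm (39.9 CPM) differed from AT2-like cells by 1.10- and 1.34-fold. AT1-like cells were shallower, at a median of 5009 UMIs.

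Ciliated-like cells had the highest Gclm of the named classes in both libraries. At E18.5 Gclm was at 150 CPM (141 to 160), 2.80-fold the AT2-like level (2.58 to 3.04), and at P10 it was at 219 CPM (169 to 279) in 41 cells. Gsta4 (269 CPM), Cbr3 (96.5 CPM) and Gsta3 (42.9 CPM) were also at least 2-fold higher at E18.5. These 4 of 9 measured genes stand beside 26.9% of 9484 genes, and none was 2-fold lower, beside 5.09%. The E18.5 ciliated-like cells also held the club marker Scgb1a1 at 29871 CPM, against 988 CPM in AT2-like and 119589 CPM in club-like cells. The part of club RNA in the ciliated-like levels was not tested.

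At E18.5 Hmox1 had its highest level among the classes in mesothelial-like cells. It was at 568 CPM (513 to 627) in 56 mesothelial-like cells of E18.5, 12.3-fold the AT2-like level (10.9 to 13.8), and at 41.5 CPM (27.1 to 60.8) in 33 such cells of P10. Myeloid-like cells were at 101 CPM at E18.5 (97.2 to 105) and 98.8 CPM at P10 (93.1 to 105), over 2-fold the AT2-like level at both ages. Single myeloid-like clusters ranged from 53.4 to 335 CPM at E18.5 and from 35.1 to 294 CPM at P10. Fibroblast-like cells were at 104 and 25.2 CPM, 4.12-fold higher at E18.5 (3.27 to 5.24). Mesothelial-like cells also had high Gsta3, with 49.5 CPM before birth and 214 CPM after it.

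**Figure D3:**
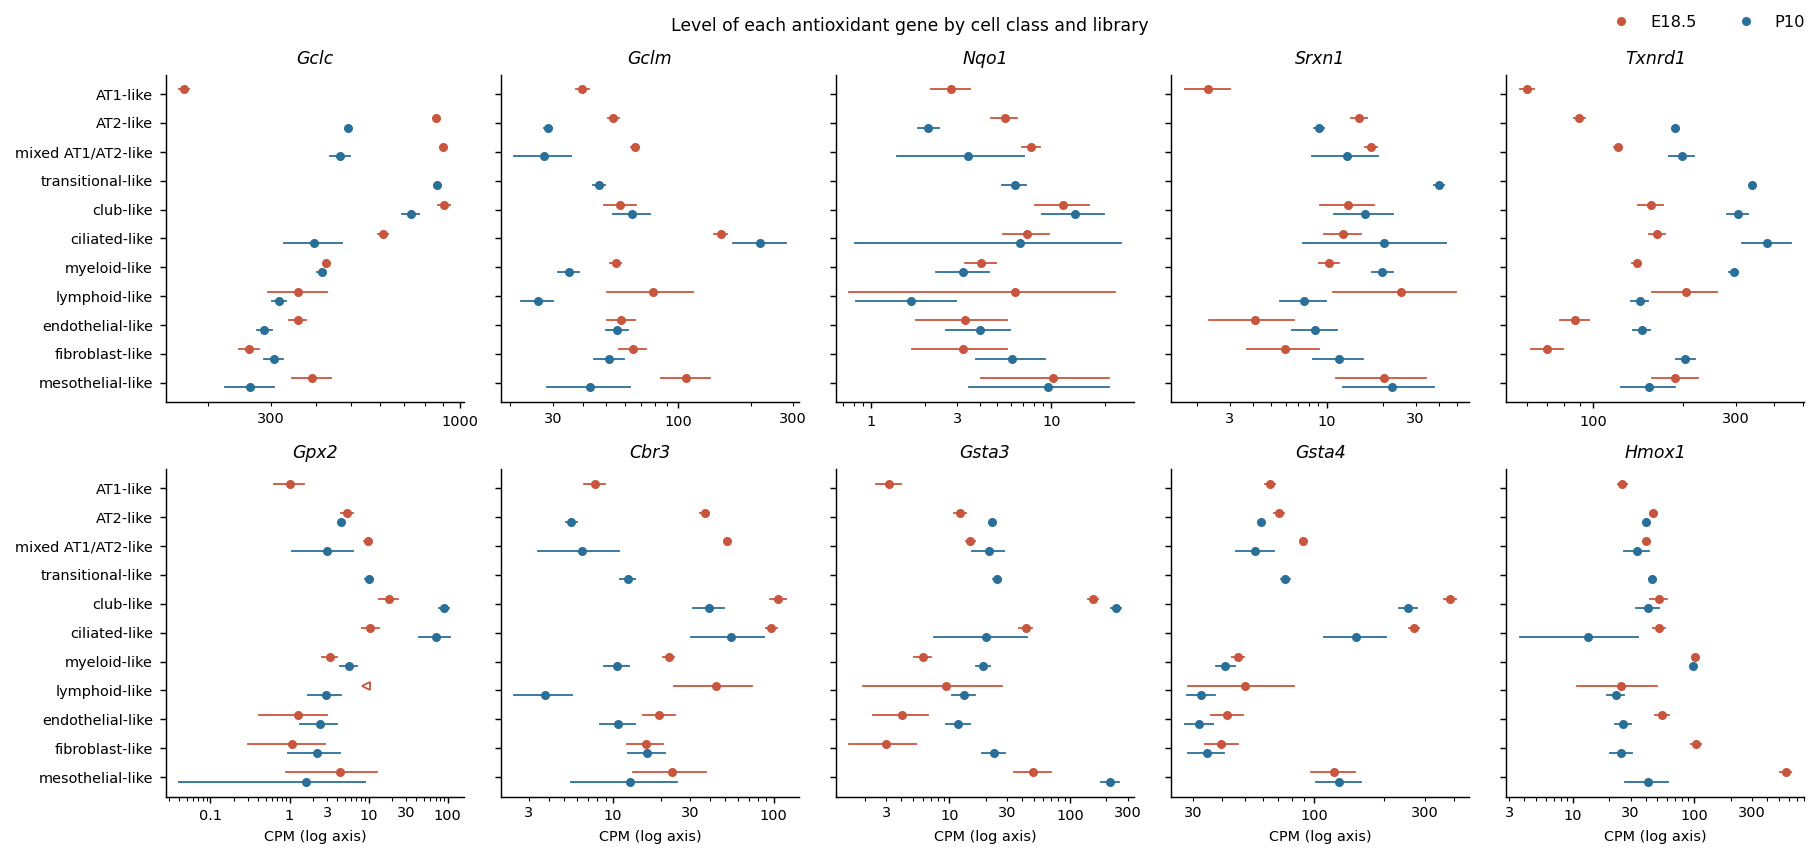
Level of each gene in CPM (x axes, log scale) in the named cell classes (y axis) at E18.5 and P10; points are summed counts of a class, bars 95% counting intervals, and the open triangle marks the limit that a count of 0 allows. Gsta3 and Gsta4 peak in club-like cells, Gclm in ciliated-like cells, Srxn1 at P10 in transitional-like cells, and Hmox1 at E18.5 in mesothelial-like cells.

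Per-cell spread was compared after each cell had been thinned to 3000 UMIs, which left 2383 E18.5 and 8888 P10 AT2-like cells. The Fano factor (variance over mean) is 1 for pure counting noise. At E18.5 it was 4.64 for Gclc, 2.94 for Cbr3, 1.77 for Gsta4, 1.71 for Hmox1 and 1.69 for Srxn1. Among genes of at least the same mean, 99.3% had a lower value than Cbr3, 98.1% than Srxn1 and 93.6% than Gclc. Cbr3 had a UMI in 6.13% of E18.5 AT2-like cells (5.20 to 7.17), with up to 14 in 1 cell. In non-epithelial cells without raised alveolar markers its share was 4.28% (2.51 to 6.77). At P10 Cbr3 had a UMI in 1.37% of AT2-like cells, never more than 1, and its Fano factor was 0.99. Gclc kept a wide spread there (2.38), followed by Txnrd1 (1.37), and the other 8 lay between 0.99 and 1.15. The median over the 10 genes was 1.55 at E18.5 and 1.05 at P10. In P10 transitional-like cells Gclc was at 4.57, Txnrd1 at 1.60 and Srxn1 at 1.29.

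Pairs of the 10 genes had higher correlations over E18.5 than over P10 AT2-like cells. Over E18.5 AT2-like cells the median Pearson r of the 45 pairs was 0.11, and 23 pairs were above 0.1. The highest were Srxn1 and Cbr3 (0.31), Gclm and Cbr3 (0.28) and Gpx2 and Cbr3 (0.24). Over P10 AT2-like cells the median was 0.01, no pair passed 0.1, and the highest was Gclc and Txnrd1 (0.10). P10 transitional-like cells lay between, with a median of 0.07 and Gclc and Srxn1 the highest (0.21). With AT2-like, mixed and transitional-like cells in 1 group, the medians were 0.11 at E18.5 and 0.03 at P10. AT1-like cells of E18.5 had a median of -0.001 and a highest value of 0.08, and the 209 club-like cells a median of 0.005 and 7 pairs over 0.1. Cells of a library share its free RNA, and in AT2-like cells 9 of the 10 genes had no UMI in most cells. The 99th percentile of r between the summed 10 genes and any other gene also differed, at 0.11 at E18.5 and 0.05 at P10, and the difference between the libraries was not tested.

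**Figure D4:**
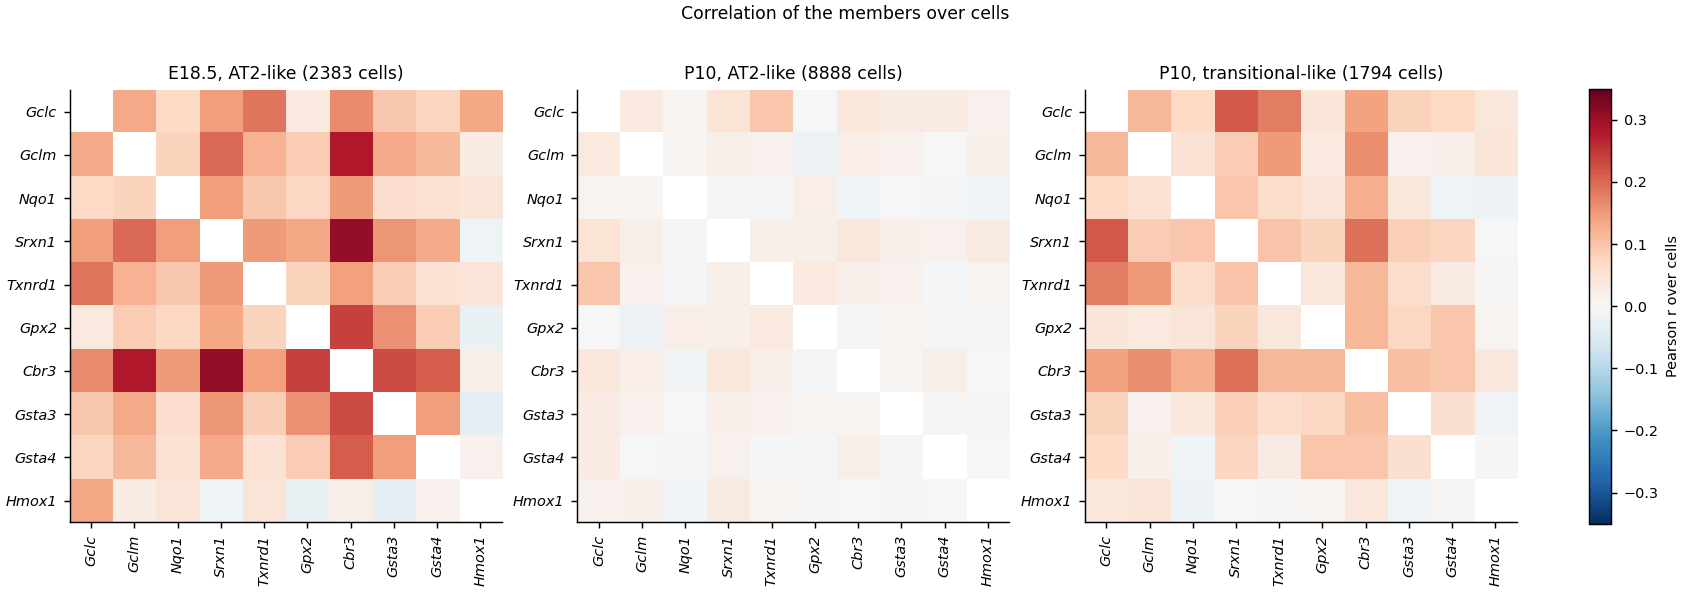
Pearson r over cells between each pair of the 10 genes (both axes; colour scale from -0.35 to 0.35), from counts thinned to 3000 UMIs per cell, in AT2-like cells of E18.5 and P10 and transitional-like cells of P10. The E18.5 panel is darkest around Cbr3, with 0.31 for Srxn1; the P10 AT2-like panel stays at or below 0.10; Hmox1 stays below 0.05 with each gene except Gclc at E18.5 (0.14).

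Each gene was then compared between cells with few and many UMIs of the others. Gclc was left out of that sum because it held 72.3% of the UMIs of the 10 genes in E18.5 AT2-like cells and 57.2% at P10. At E18.5 Cbr3 was counted 3.94 times per 100 cells (2.91 to 5.23) where the others had no UMI and 170 times (137 to 209) where they had 5 or more, in 53 cells. Gclm went from 11.3 (9.59 to 13.3) to 119 UMIs per 100 cells (92.6 to 151), and Srxn1 from 1.60 (0.96 to 2.49) to 56.1 (39.5 to 77.3). Gclc itself went from 199.7 to 844. Gsta4 went from 15.5 to 108, Txnrd1 from 20.6 to 108, Gsta3 from 1.60 to 27.3, Gpx2 from 0.762 to 16.2 and Nqo1 from 0.678 to 15.9. Hmox1 was at 13.2 (11.3 to 15.3) and 17.9 (8.56 to 32.8), with overlapping intervals. With Gclc in the sum it was different: the r of Hmox1 with the other 9 genes was 0.13, and with Gclc alone 0.14. Hmox1 then went from 10.9 UMIs per 100 cells (8.87 to 13.2) in the lowest to 42.3 (33.8 to 52.3) in the highest group. The median depth before thinning was 9303 UMIs in the lowest and 11332 in the highest group of the Gclc comparison, and its part was not tested.

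In P10 AT2-like cells the intervals of the lowest and highest groups overlapped for Gclm, Nqo1, Cbr3, Gsta3, Gsta4 and Hmox1. Gclm was at 7.78 (6.91 to 8.73) and 12.5 (6.24 to 22.4) UMIs per 100 cells, Gsta4 at 17.4 and 16.7, and Cbr3 at 1.19 and 4.63 on 5 UMIs. Gclc went from 123 (119 to 126) to 287 (257 to 321). Srxn1 went from 1.95 (1.52 to 2.48) to 10.0 (4.80 to 18.4). In transitional-like cells Cbr3 went from 1.95 (0.842 to 3.84) to 24.8 (17.4 to 34.4), Srxn1 from 10.2 (7.43 to 13.6) to 40.5 (30.1 to 53.2) and Gclm from 9.11 (6.51 to 12.4) to 33.9 (24.4 to 45.8). Hmox1 was again level there, at 14.99 and 13.8.

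**Figure D5:**
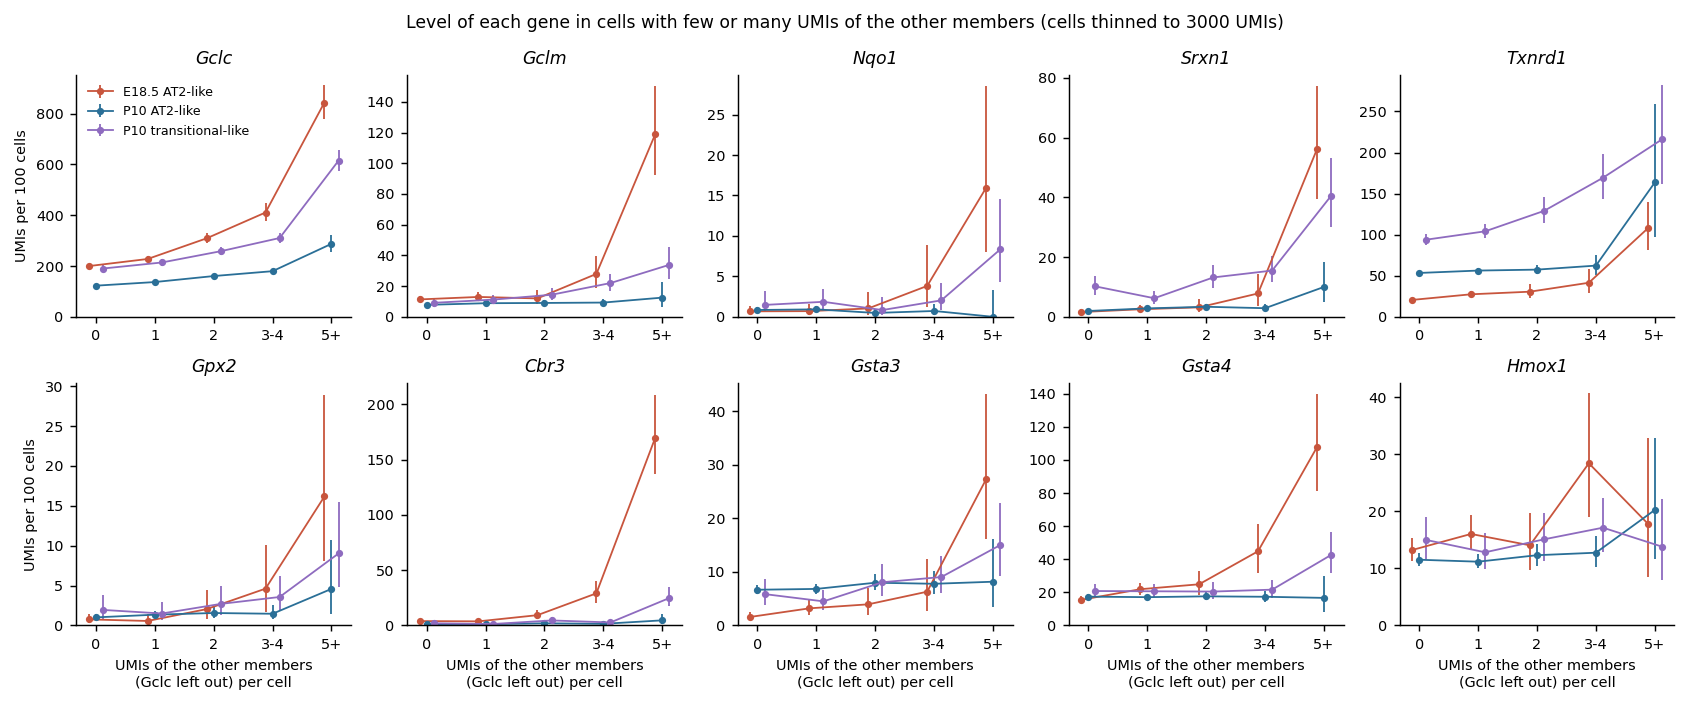
UMIs of each gene per 100 cells (y axes, from 0) in cells grouped by their UMIs of the other genes without Gclc (x axes), for AT2-like cells of both libraries and transitional-like cells of P10, all thinned to 3000 UMIs; bars are 95% counting intervals. Cbr3 goes from 3.94 to 170 in E18.5 AT2-like cells, and its first and last P10 AT2-like points lie below those of E18.5. In P10 AT2-like cells Gclc and Srxn1 are higher in the last group than in the first. Hmox1 shows overlapping bars between the first and last groups.

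A small share of cells held many of the genes at once. At least 5 of the 10 were detected in 44 E18.5 AT2-like cells (1.85%), 73 mixed cells (3.60%), 28 P10 AT2-like cells (0.315%) and 57 transitional-like cells (3.18%). The share was higher in airway cells. It was 8.13% of 209 club-like cells at E18.5 (17 cells), 7.41% of 54 at P10 (4 cells) and 4.63% of 410 ciliated-like cells at E18.5 (19 cells). Several of the genes also had higher levels in these classes, and the median r of the pairs over E18.5 club-like cells was 0.005. The part of level in these shares was not tested. In E18.5 AT2-like cells up to 9 were detected in 1 cell. Compared with E18.5 AT2-like cells in which 0 or 1 was detected, the 44 cells held 19.2 rather than 9.70 UMIs of transitional markers per 3000. They held 466 rather than 543 UMIs of AT2 markers and 11.0 rather than 10.7 of AT1 markers. UMIs of dissociation and immediate early stress genes were 13.1 and 12.6, and the median mitochondrial share was 1.28% and 1.43%. The median doublet score was 0.0316 in the 44 cells and 0.0344 in the others, and median depth 11595 and 9320 UMIs.

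Clustering was also allowed to use all variable genes. In each library the AT2-like, mixed or transitional-like cluster with the highest Srxn1 was then picked, so high levels were built into the choice. At E18.5 the picked cluster held 271 cells, with Gclc at 1810 CPM, Cbr3 at 379 CPM, Gclm at 232 CPM and Srxn1 at 127 CPM. Without the antioxidant genes 158 of them (58.3%) lay in the mixed cluster led by Sprr1a and Cbr3, and 43 and 34 in the AT2-like clusters. At P10 the picked cluster held 1401 cells and was named transitional-like. Of these cells 91.1% lay in the transitional-like cluster built without the antioxidant genes. In the picked P10 cluster Cbr3 was at 13.9 CPM and Srxn1 at 44.6 CPM.

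The genes most like the summed 10 over E18.5 AT2-like cells, by Pearson r among 5867 other genes, included Ftl1 (0.27), Areg (0.26), Atf3 (0.23), Thbs1, Sfn, Klf6, Phlda1, Sqstm1 and Ifrd1 (0.20). Ftl1 encodes the ferritin light chain, an iron store. Without Gclc in the sum, Ftl1 (0.27), Pgd (0.23), Gstm1 (0.23) and Taldo1 (0.21) led. Pgd and Taldo1 are enzymes of the pentose phosphate pathway, which supplies NADPH, and Gstm1 is a glutathione transferase. At P10 the nearest genes included Atf3 (0.14), Sqstm1 (0.13), Ifrd1, Jund, Klf6, Neat1, 4930523C07Rik, Itgav and Fth1 (0.08). Atf3 is a stress-induced transcription factor and Sqstm1 an autophagy receptor that binds KEAP1. 

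The regulators of the pathway were close or higher at P10. In AT2-like cells Nfe2l2 was at 581 CPM before birth and 625 CPM after it, a ratio of 1.08 (1.06 to 1.10), and Keap1 at 24.99 and 47.9 CPM, a ratio of 1.92 (1.77 to 2.08). Of 9 regulators 1 was at least 2-fold higher, Sqstm1 (279 and 619 CPM, ratio 2.22), and none lower, beside 15.2% and 9.56% of all genes in these cells. The list counts that follow are read against the same shares. In P10 transitional-like cells Nfe2l2 was at 757 CPM and Sqstm1 at 1151 CPM.

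Glutathione and thioredoxin genes were counted against the 9.56% of all genes lower and 15.2% higher in P10 AT2-like cells. Of 6 measured genes of glutathione synthesis, uptake and turnover 1 was 2-fold lower, Slc7a11, the cystine transporter (18.4 and 5.28 CPM, 3.50-fold, 3.09 to 3.95), and none higher. Of 12 thioredoxin and peroxiredoxin genes 4 were lower, among them Txn1 (1196 and 388 CPM, 3.08-fold), Prdx5 (350 and 138 CPM, 2.54-fold) and Prdx4 (108 and 45.5 CPM, 2.37-fold), and none was higher. Of 11 glutathione transferases 3 were lower, Gsto1, Mgst2 and Mgst3 (3.22-, 2.85- and 2.28-fold), and 1 was higher, Gstt1 (25.3 and 70.6 CPM, ratio 2.79). The median log2 ratios of these 3 lists were -0.54, -0.52 and -0.04.

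Among the other lists, genes passed 2-fold in both directions, beside the same 15.2% higher and 9.56% lower. Of 12 quinone, carbonyl and xenobiotic enzymes 3 were higher, Cbr2 (401 and 2178 CPM, ratio 5.43), Abcc4 (ratio 2.94) and Osgin1 (ratio 2.30), and 1 was lower, Esd (2.52-fold). Cbr2 and Cbr3, both carbonyl reductases, thus stood on opposite sides of 2-fold. Of 3 genes of superoxide and peroxide removal 1 was higher, Sod1 (73.6 and 267 CPM, ratio 3.63). Of 6 haem and iron genes 1 was higher, Fech (8.82 and 18.6 CPM), and of 6 NADPH genes 1 was lower, Taldo1 (239 and 96.0 CPM). None of 4 glutathione peroxidases passed 2-fold. Of 10 dissociation and immediate early stress genes 5 were higher, led by Fosb (ratio 14.6), Fos (4.30) and Atf3 (2.45), and 2 lower, Hspa1b (9.05-fold) and Hspa1a (6.88-fold). Of 8 unfolded protein and ATF4 genes 2 were lower, Asns (5.56-fold) and Hspa5 (2.13-fold). Genes of dissociation and immediate early stress differed between the libraries in both directions, and their part in the differences of the 10 genes was not tested.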

How the data were processed

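The authors deposited raw UMI counts per gene and cell barcode for each library. Per the file headers the matrices came from Cell Ranger 7.0.1, and the submitters' processing notes name mm10 and, with no use stated, Seurat 4.0.0. Intron and strand settings of the counting are not given in the sources used here. Gclm, Txnrd1, Gpx2 and Gsta3 overlap other genes in GENCODE vM21, so their counts are less certain.

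Barcodes were kept from 500 genes and 1000 UMIs upward where mitochondrial genes held no more than 20% of UMIs. Each library was clustered with Leiden (2000 variable genes, 30 components, 15 neighbours, resolution 1, scanpy 1.11.5, Python 3.11.15), leaving out the 100 antioxidant genes on the lists. Clusters holding both club and ciliated markers were split at resolution 0.5. A marker was raised when at least 25% of a cluster's cells had it and its level was at least 3 times the 10th percentile over clusters (10 CPM added). Airway and non-epithelial names needed 3 raised markers and 35% of the list, alveolar names 3 raised markers and a level of 0.5, and a mixed name 0.25 of the other alveolar list. These naming rules were set after clusters had been seen. The 10 genes, the lists and the named genes (all 10; per list up to 3 in each direction past 2-fold, with Nfe2l2 and Keap1; the 10 nearest by r, not all reported here) were chosen with earlier results of these data known.

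UMIs were summed over a class and given as CPM with exact Poisson intervals, ratios with exact conditional binomial intervals and shares with exact Clopper-Pearson intervals (95%, counting error only; the floor is 3 counts). Ratios use 2-fold as a line among genes with at least 10 CPM in either sum. Spread and correlation use cells thinned to 3000 UMIs and log(1 + count); 1332 and 823 cells were shallower. Cells are not replicates, so there is no test. The calculations were tested on simulated data. Alternatives changed the cell filter, resolution, clustering genes, scaling, CPM minimum, fold and thinning; the grouping of AT2-like with mixed and transitional-like cells, and the sum without Gclc, were added after seeing the data.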

Additional observations from a re-analysis of the deposited data

How the results depend on the processing

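For AT2-like cells the median log2 ratio between the libraries (P10 over E18.5), -0.49, kept its sign in all settings run. It was -0.67 with the looser cell filter, -0.59 at resolution 0.5, -0.90 with clusters built on all variable genes, -0.70 after subtracting the median of all genes, and -0.25 with mixed and transitional-like cells added (a choice made after seeing the data). The 1 gene called higher became 0 with the looser filter, at resolution 0.5, at resolution 2, with all variable genes and after subtracting the median of all genes or of genes of like length, and 2 at 1.5-fold. This count does not follow Txnrd1 alone: under the stricter filter Gsta3 passed 2-fold higher, with a log2 ratio of 1.37. The 1 gene called lower became 2 with the stricter filter, with the looser filter and with no CPM minimum, 5 with all variable genes, 3 after either subtraction, 4 at 1.5-fold and 0 at a minimum of 50 CPM, where fewer genes are tested. With all variable genes the 271 antioxidant-high E18.5 cells form an AT2-like cluster, which raises the E18.5 levels. The cause of the other moves was not tested.

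The E18.5 median log2 ratio of club-like over AT2-like cells was 0.41 with all variable genes, against 0.94. The median Fano factor in E18.5 AT2-like cells was 1.27 thinned to 2000 UMIs and 2.94 without thinning, and 1.35 without thinning at P10. The median r without thinning was 0.27 at E18.5 and 0.078 at P10, where cell depth enters. No paired analysis was possible because there is 1 library per time point, which also leaves no replicate to leave out.

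Depth limits the genes of few UMIs: Nqo1 and Gpx2 rest on 143 and 140 UMIs in E18.5 AT2-like cells, and Nqo1 on 27 in P10 club-like cells.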
